A study of Mus musculus with 5 samples.

Results

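The genes examined were 10 regulators of mitosis, the cyclin genes Ccna2, Ccnb1 and Ccnb2, the kinase genes Cdk1, Plk1 and Aurka, the phosphatase gene Cdc25c, Cdc20 and Ube2c of the anaphase-promoting complex, and the transcription factor gene Foxm1. They were taken by symbol from a deposited table of 52459 rows, and all 10 were in it. The table held FPKM (fragments per kilobase, scaled to library depth) for 5 RNA sequencing libraries. AThi, the autophagy-high population, had 2 libraries and ATlo, the autophagy-low population, had 3. Per the labels, both came from the mouse pancreatic cancer line HY15549 of C57BL/6 background carrying a GFP-LC3-RFP reporter, whose ratio of green to red signal reads autophagy flux. The cells were grown as organoids in Matrigel with DMEM and 10% FBS, dissociated and sorted on that ratio. All libraries thus stem from 1 line, and no label used here says whether replicates came from separate cultures. The p-values therefore describe the scatter of these libraries and no more.

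Entry into mitosis is driven by CDK1, a kinase that is active only when bound to an A- or B-type cyclin. The phosphatase CDC25C removes inhibitory phosphates from CDK1, and the kinases Aurora A and PLK1 promote that step and build the spindle. Exit from mitosis depends on the anaphase-promoting complex (APC/C), a ubiquitin ligase that CDC20 activates and that works with the conjugating enzyme UBE2C to mark cyclins and other proteins for destruction. Most of these genes are transcribed in G2 and M phase through promoters with CCAAT boxes, bound by NF-Y, and a CHR element, bound by the MuvB complex, and FOXM1 takes part in the same programme. Their transcripts are therefore commonly used as a measure of how many cells of a population are dividing.

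The promoters are given as sequence background, and their part in the changes reported below was not tested. RefSeq promoter windows of GRCm38.p6, from 250 bases before to 50 bases after an annotated start, matched 7 of the 10 genes. Of each of 5 of them the stretch from 110 bases before to 50 bases after the start is given, 5′ to 3′ along the gene. Capitals mark CCAAT or its reverse complement ATTGG, and the CHR word TTTGAA or its reverse complement TTCAAA. The stretches lie at chr13:100786437-100786596, minus strand (Ccnb1), chr9:70421505-70421664, minus strand (Ccnb2), chr10:69352863-69353022, minus strand (Cdk1), chr4:118437294-118437453, minus strand (Cdc20) and chr2:164769819-164769978, plus strand (Ube2c).
Ccnb1: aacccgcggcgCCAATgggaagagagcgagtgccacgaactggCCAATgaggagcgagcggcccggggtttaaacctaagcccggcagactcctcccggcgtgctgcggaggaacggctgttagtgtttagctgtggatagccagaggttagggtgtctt
Ccnb2: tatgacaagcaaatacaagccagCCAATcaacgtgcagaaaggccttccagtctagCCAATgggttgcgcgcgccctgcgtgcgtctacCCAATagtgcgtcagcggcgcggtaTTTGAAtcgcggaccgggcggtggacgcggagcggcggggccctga
Cdk1: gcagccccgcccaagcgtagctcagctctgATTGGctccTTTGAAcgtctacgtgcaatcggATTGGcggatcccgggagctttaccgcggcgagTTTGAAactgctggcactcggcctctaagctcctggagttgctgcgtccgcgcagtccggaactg
Cdc20: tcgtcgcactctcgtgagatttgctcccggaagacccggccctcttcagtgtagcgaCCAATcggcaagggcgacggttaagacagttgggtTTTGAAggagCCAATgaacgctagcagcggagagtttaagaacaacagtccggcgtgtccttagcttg
Ube2c: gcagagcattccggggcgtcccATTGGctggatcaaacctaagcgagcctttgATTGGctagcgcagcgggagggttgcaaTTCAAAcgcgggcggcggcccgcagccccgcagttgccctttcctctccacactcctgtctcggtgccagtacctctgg

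All 7 windows held a CCAAT box on either strand, and 37.4% of the 32851 windows of all genes did. The CHR word was found in 6 of the 7 windows, against 17.9% of all windows. The window of Ccnb1 was the one without it. Both words stood together in 6 of the 7, against 6.95% of all windows. A pair of CCAAT boxes on the same strand, 31 to 33 bases apart from start to start, was found in 5 of the 7, namely Ccnb1, Ccnb2, Cdk1, Ube2c and Aurka, and in 0.794% of all windows. This spacing was chosen after the windows were seen. In Ccnb2 the 3 boxes stood 33 bases apart from each other, and in Ccnb1, Cdk1 and Aurka a pair stood 32 bases apart. The forkhead word TAAACA was in 1 of the 7 windows, that of Ccnb1, and in 13.4% of all. No CHR match overlapped a CCAAT match, while in the window of Ube2c a box on each strand shared bases. A match describes the sequence and is not a measured binding site.

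**Figure D1:**
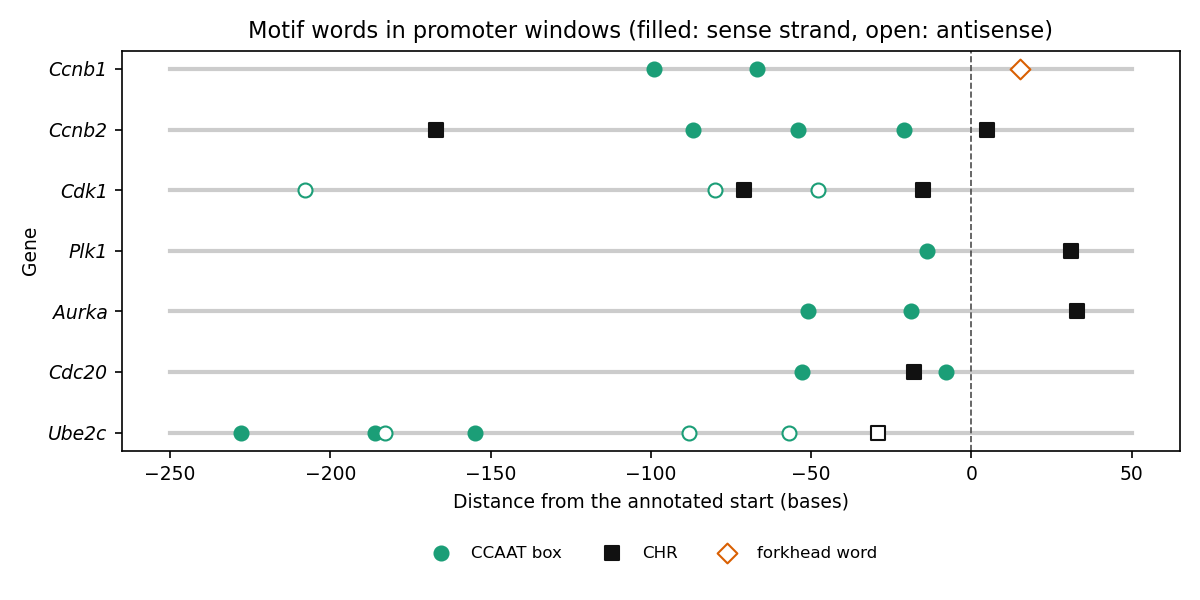
Positions of the CCAAT box, the CHR word and the forkhead word in the promoter windows of 7 mitotic genes, in bases from the annotated start (dashed line), filled on the sense and open on the antisense strand. CCAAT boxes lie upstream of the start in all 7 windows, and the CHR word lies within 33 bases of the start in 6 of them.

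The comparison asked how transcript levels differed between cells of high and low autophagy flux. All 10 genes were lower in AThi, and for each of them both AThi libraries lay below all 3 ATlo libraries. The limma test was run on log2(FPKM + 0.5), AThi minus ATlo, with Benjamini-Hochberg adjustment over the 11397 genes whose mean reached 1 FPKM and a threshold of 0.05. All 10 passed with adjusted p-values between 3.32e-05 and 8.63e-05, where 29.4% of all tested genes passed as lower in AThi and 51.6% passed in either direction. Their log2 fold changes ran from -3.84 to -2.41. The median was -3.08, and over all tested genes it was -0.03. A fall of at least 2 on this scale was reached by all 10 and by 1.16% of the tested genes. Non-overlap with AThi lower was found in 38.4% of the tested genes. The 10 genes and the lists below were chosen with earlier results of these data known, so these shares describe and do not test.

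The summed level of the 10 genes was 22.7 and 27.0 FPKM in the AThi libraries, against 244.8, 279.0 and 320.8 FPKM in the ATlo libraries. The mean sum was 11.3-fold lower in AThi. As a share of all FPKM, the 10 genes held 0.0086 ± 0.0011% in AThi (SD, n = 2) and 0.0949 ± 0.0139% in ATlo (SD, n = 3). The exact two-sided permutation test, with the smaller tail doubled, gave p = 0.2 for the sum and for the share, the smallest value it can give for 2 against 3 libraries. In a bulk sample, fewer dividing cells and less of each transcript per dividing cell cannot be told apart.

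**Figure D2:**
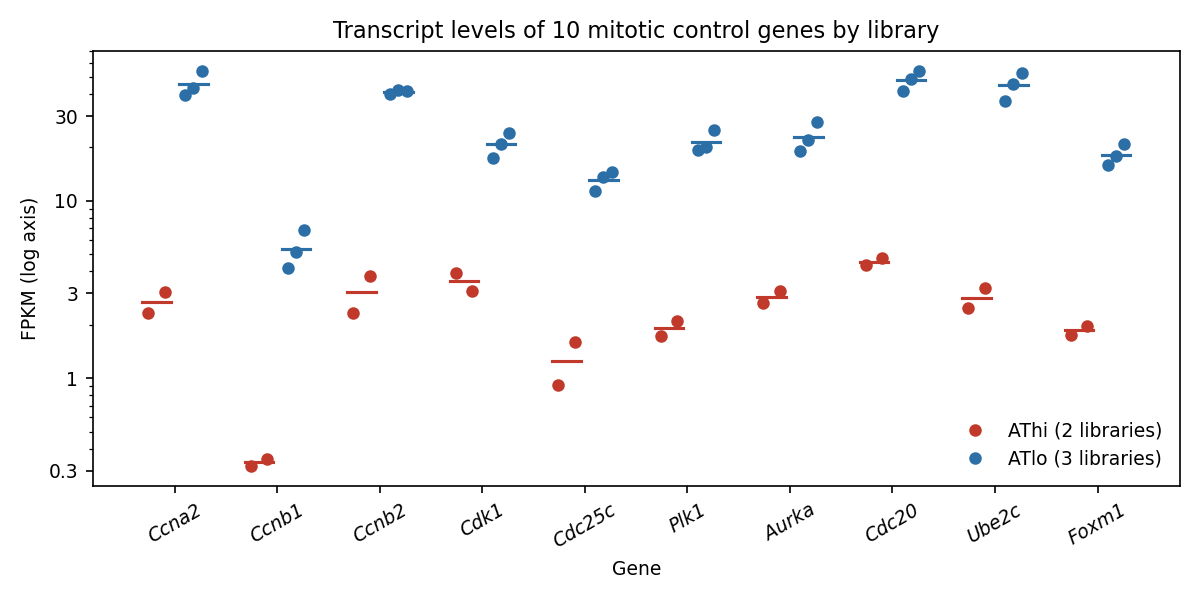
FPKM of the 10 mitotic control genes on a log axis, AThi in red and ATlo in blue, 1 point per library with a line at the group mean. The AThi points lie below the ATlo points of the same gene for every gene, at 0.32 to 4.75 FPKM against 4.15 to 54.17 FPKM.

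Among the cyclins, Ccna2 encodes cyclin A2, which acts in S phase and G2 with CDK2 and CDK1. It was at 2.33 and 3.07 FPKM in AThi, against 39.33, 43.06 and 53.71 FPKM in ATlo. The mean was 16.8-fold lower in AThi, and its log2 fold change of -3.84 ± 0.15 (SE) was the largest fall of all 11397 tested genes. Ranks were taken with 0.5 FPKM added, which shrinks the falls of low genes. The listed genes Birc5 and Bub1, at ranks 3 and 5, had means 16.53-fold and 16.4-fold lower in AThi. Ccnb2, the gene of cyclin B2, which is found mainly at the Golgi, was at 2.32 and 3.76 FPKM in AThi, against 40.09, 42.18 and 41.50 FPKM in ATlo. Its log2 fold change was -3.59 ± 0.16 (SE) and had rank 4 among the falls. The ATlo libraries were nearly level for this gene, with a highest value 1.05 times the lowest, while the AThi libraries differed 1.62-fold.

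Ccnb1, the gene of cyclin B1, the main partner of CDK1 at mitotic entry, was the lowest of the 10. It was at 0.32 and 0.35 FPKM in AThi, against 4.15, 5.14 and 6.84 FPKM in ATlo. The mean was 16.05-fold lower in AThi, close to Ccna2, while its log2 fold change of -2.79 ± 0.19 (SE) was smaller. That difference comes from the added 0.5 FPKM, which is larger than the AThi level itself, and with 0.1 FPKM added the change was -3.63. Ccnb1 was the 1 gene of the 10 whose AThi mean lay under 1 FPKM, so that it passed the filter through ATlo alone. In the GENCODE M21 transcripts, 52.0% of its principal transcript had a copy of at least 95% identity in 4 other genes, all pseudogenes, among them Ccnb1-ps at 99.2% identity over 1287 nucleotides. Reads from such stretches can be lost or shared in counting, so the level of Ccnb1 is uncertain. Its merged exons span 4217 nucleotides against 2489 for the principal transcript, which also bears on its FPKM if merged exons were the length used.

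Cdk1, which encodes the kinase itself, had the smallest fall of the 10. It was at 3.92 and 3.09 FPKM in AThi, against 17.45, 20.98 and 23.93 FPKM in ATlo. The mean was 5.93-fold lower in AThi, with a log2 fold change of -2.41 ± 0.14 (SE), rank 83 among the falls. Cdk1 was also the 1 gene of the 10 with its higher AThi value in replicate 1. Set against the kinase within each library, Ccna2 was at 0.594 and 0.994 times the FPKM of Cdk1 in AThi, against 2.25, 2.05 and 2.24 times in ATlo. For Ccnb1 the ratio to Cdk1 was 0.0816 and 0.113 in AThi, against 0.238, 0.245 and 0.286 in ATlo. Transcripts of both cyclins were thus lower relative to their kinase in AThi, with log2 differences of -1.505 and -1.409 and no overlap between groups. With 0.5 FPKM added to each gene the difference was -1.43 for Ccna2 but -0.38 for Ccnb1, so the size for Ccnb1 rests on values under 0.5 FPKM. Without AThi replicate 2 the difference was -1.88 for Ccna2 and -1.65 for Ccnb1, and without AThi replicate 1 it was -1.14 and -1.17. The ratio of Ccnb1 to Ccnb2 overlapped between groups, at 0.138 and 0.0931 in AThi and 0.104, 0.122 and 0.165 in ATlo.

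Cdc25c, the gene of the phosphatase that activates CDK1, was at 0.92 and 1.59 FPKM in AThi, against 11.33, 13.68 and 14.48 FPKM in ATlo. Its log2 fold change was -2.98 ± 0.18 (SE), and its AThi values differed 1.73-fold, the widest spread within AThi among the 10. The paralog Cdc25b, which acts earlier in G2, was at 13.19 and 14.62 FPKM in AThi, against 26.31, 29.13 and 34.56 FPKM in ATlo, a log2 fold change of -1.08 ± 0.12 (SE). Cdc25a, which acts from G1 into S phase, changed by -0.30 ± 0.08 (SE), a call lost without AThi replicate 1, AThi replicate 2 or ATlo replicate 2 (adjusted p 0.0614 to 0.0713). The estimated changes of the 3 phosphatase genes therefore differed in size. The ratio of Cdc25c to Cdc25b was 0.0698 and 0.109 in AThi, against 0.431, 0.470 and 0.419 in ATlo.

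Plk1, whose kinase acts at centrosomes, kinetochores and the midbody, was at 1.73 and 2.09 FPKM in AThi, against 19.25, 20.14 and 25.18 FPKM in ATlo. Its log2 fold change was -3.19 ± 0.13 (SE), and its mean was 11.3-fold lower. The family did not move as one. Plk4, which starts centriole duplication, fell by 2.22 on the log2 scale. Plk2, a stress- and growth-responsive relative, was at 2.81 and 4.13 FPKM in AThi and 2.34, 3.30 and 2.22 FPKM in ATlo, which overlap. Plk3, known as an immediate-early gene, was at 16.22 and 27.75 FPKM in AThi, against 11.17, 15.24 and 7.71 FPKM in ATlo, with a log2 fold change of 0.92 ± 0.30 (SE) and a limma adjusted p of 0.0388. Its call was lost in 6 of the alternative fits, with an adjusted p of up to 0.245 without AThi replicate 2. Within a library, Plk1 was at 0.616 and 0.506 times the FPKM of Plk2 in AThi, against 8.23, 6.10 and 11.3 times in ATlo. This was the largest difference of the 9 ratios computed. Of 12 listed paralogs of the 10 genes, 8 were tested, of which 6 fell, 1 rose and 1 missed the threshold. Among all tested genes, 29.4% fell and 51.6% passed in either direction. Of the 7 paralog calls, 5 were kept whichever library was left out. The median of the 8 paralogs was -0.61, and Cdk2, the relative of Cdk1 that acts in S phase, changed by -0.80 ± 0.09 (SE).

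Aurka, the gene of Aurora A, which matures centrosomes and activates PLK1, was at 2.64 and 3.10 FPKM in AThi, against 19.13, 21.93 and 27.80 FPKM in ATlo. Its mean was 7.998-fold lower in AThi, with a log2 fold change of -2.79 ± 0.15 (SE). Its activator Tpx2 was at 2.41 and 2.73 FPKM in AThi, against 23.43, 29.84 and 33.70 FPKM in ATlo, a change of -3.25 ± 0.15 (SE). The ratio of Aurka to Tpx2 was therefore higher in AThi, at 1.10 and 1.14, against 0.817, 0.735 and 0.825 in ATlo. Aurkb, the gene of Aurora B of the chromosomal passenger complex, fell by 3.32 on the log2 scale, and Aurkc was listed at 0 in every library. Of the 8 tested Aurora and Polo partners, 7 fell, 0 rose and 1 missed the threshold, where 29.4% of all tested genes fell. Birc5, Cdca8 and Incenp, passenger complex subunits, fell by 3.64, 2.48 and 2.33 on the log2 scale. Bora, the protein through which Aurora A activates PLK1, fell by 1.36, and the scaffold gene Cep192 fell by 0.74. The list median was -1.85, against -0.03 for all tested genes. The pathway lists share genes, so their counts are not separate. Tpx2 is also in the APC/C substrate list, and Aurkb is in the substrate and paralog lists. Fzr1 is in the paralog and coactivator lists. Cdc25a and Cdc25b are in the paralog list and in that of CDK1 inputs.

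Cdc20, the coactivator that starts anaphase, was at 4.33 and 4.75 FPKM in AThi, against 41.67, 48.38 and 54.17 FPKM in ATlo. Its log2 fold change was -3.26 ± 0.11 (SE), the smallest SE of the 10. Fzr1, the gene of CDH1, the coactivator that keeps the APC/C active from late mitosis through G1, was at 13.02 and 14.52 FPKM in AThi, against 18.48, 17.75 and 19.40 FPKM in ATlo. It changed by -0.42 ± 0.07 (SE). The order of both coactivators thus differed between populations. Cdc20 was at 0.333 and 0.327 times the FPKM of Fzr1 in AThi, against 2.25, 2.73 and 2.79 times in ATlo, a difference of -2.97 on the log2 scale.

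Ube2c, the E2 enzyme that starts ubiquitin chains on APC/C substrates, was at 2.47 and 3.22 FPKM in AThi, against 36.55, 45.64 and 52.31 FPKM in ATlo. Its log2 fold change was -3.75 ± 0.16 (SE), rank 2 among the falls. Ube2s, the E2 that extends those chains, was at 1.23 and 1.06 FPKM in AThi, against 2.82, 3.0 and 3.6 FPKM in ATlo, a change of -1.14 ± 0.13 (SE). The ratio of Ube2c to Ube2s was 2.01 and 3.04 in AThi, against 12.96, 15.21 and 14.53 in ATlo. Of the 9 ratios, 8 did not overlap between groups, and each of these had an exact permutation p of 0.2 and a Benjamini-Hochberg value of 0.225. For the remaining ratio, Ccnb1 to Ccnb2, the exact permutation p was 0.8. Non-overlap was common in these data. Among single tested genes, AThi lay below all ATlo libraries in 38.4% and above them in 31.9%.

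**Figure D3:**
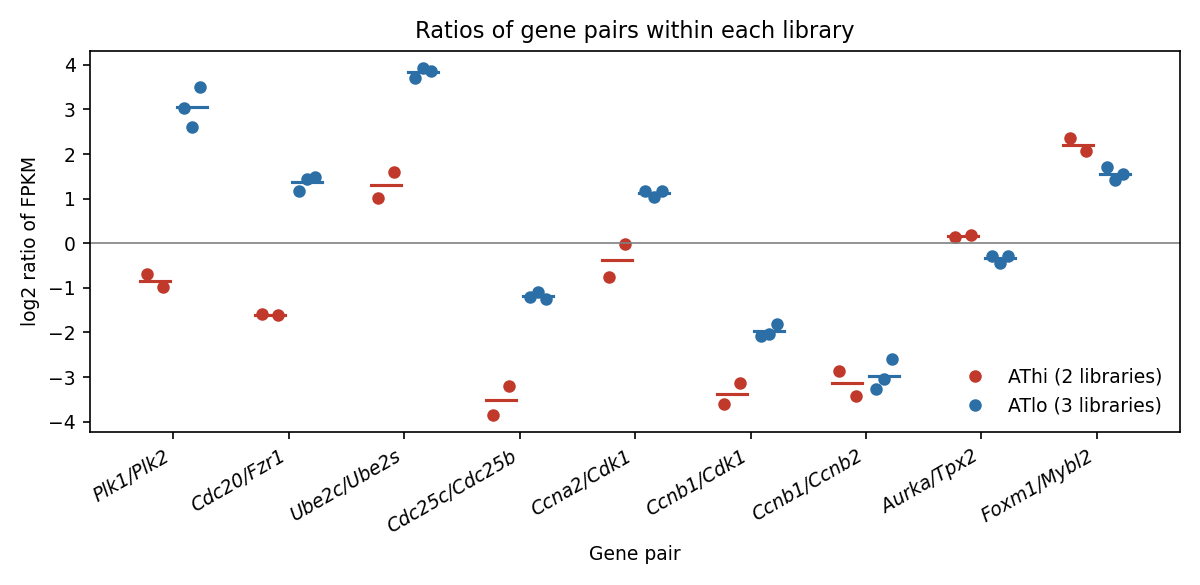
log2 ratios of FPKM of 9 gene pairs, 1 point per library with a line at the group mean, AThi in red and ATlo in blue. Plk1 to Plk2 and Cdc20 to Fzr1 lie below 0 in both AThi libraries and above 0 in all ATlo libraries.

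The core of the APC/C, on which CDC20 and UBE2C act, changed far less. All 14 of its subunit genes were tested, and 8 fell, 0 rose and 6 missed the threshold, where 29.4% of all tested genes fell and 51.6% passed in either direction. Their median log2 fold change was -0.26. The largest changes were in Anapc15, Anapc11 and Anapc5, at -0.50 ± 0.14, -0.49 ± 0.07 and -0.40 ± 0.07 (SE). Cdc23 and Anapc16 overlapped between groups, with log2 fold changes of -0.03 and 0.02. Of the 8 calls, 3 were kept whichever library was left out. The call of Anapc15 was lost without AThi replicate 1, ATlo replicate 2 or ATlo replicate 3, with adjusted p-values of 0.0561 to 0.126. The summed core subunits were at 190.9 to 191.8 FPKM in AThi and 223.9 to 235.1 FPKM in ATlo.

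Of 10 listed genes for a coactivator, an E2, and inhibitors of the APC/C or proteins that act on those inhibitors, 9 were tested. All 9 fell, where 29.4% of all tested genes fell. Of these calls, 8 were kept whichever library was left out, and that of Mad2l1bp was not. The median of the 9 was -1.14. Bub1b and Mad2l1, which belong to the checkpoint complex that holds CDC20, changed by -2.62 ± 0.13 and -2.31 ± 0.11 (SE). Trip13, an ATPase that remodels MAD2, changed by -2.05 ± 0.13 (SE). Fbxo5, the gene of the interphase inhibitor EMI1, was at 2.99 and 2.59 FPKM in AThi, against 7.44, 9.58 and 10.67 FPKM in ATlo. Its relative Fbxo43 was at 0.04 FPKM or less in each library and was not tested.

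Of 14 APC/C substrate genes, 13 fell and 1 rose, where 29.4% of all tested genes fell and 22.2% rose. The median of the 14 was -2.80. Bub1, Cdca3 and Aurkb had the largest falls, at -3.49 ± 0.17, -3.37 ± 0.15 and -3.32 ± 0.14 (SE). The 1 that rose was Pttg1, which encodes securin, the inhibitor of separase and a classical target of APC/C with CDC20. It was at 13.11 and 14.19 FPKM in AThi, against 10.25, 10.46 and 10.73 FPKM in ATlo. Its log2 fold change was 0.37 ± 0.07 (SE) with a limma adjusted p of 0.00369, and the call was kept with any 1 library left out, with adjusted p-values of 0.0095 to 0.0284. No copy of its transcript at 95% identity was found in other annotated genes.

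Among 12 genes that act on CDK1, 6 fell, 1 rose and 5 missed the threshold. These 7 calls of 12 are near the background share of 51.6%. Their median was -0.24. Pkmyt1, an inhibitory kinase of CDK1, was at 5.90 and 8.03 FPKM in AThi, against 22.68, 24.36 and 25.81 FPKM in ATlo. Wee1, the other inhibitory kinase, changed by -0.64 ± 0.14 (SE), and its call was lost without AThi replicate 2 (adjusted p 0.0618). The CDK-binding proteins Cks1b and Cks2 changed by -1.10 ± 0.08 and -1.75 ± 0.38 (SE), and the call of Cks2 was lost without AThi replicate 1 (adjusted p 0.0621). Both an inhibitory input (Pkmyt1) and an activating one (Cdc25b) thus fell. The CDK-activating kinase genes Cdk7, Ccnh and Mnat1 did not pass, with log2 fold changes of -0.18, 0.01 and -0.18. The gene that rose was Cdkn1a, which encodes the CDK inhibitor p21, at 15.64 and 27.53 FPKM in AThi, against 8.01, 11.85 and 11.86 FPKM in ATlo. Its change of 0.96 ± 0.25 (SE) had a limma adjusted p of 0.0177, and without AThi replicate 2 it was 0.56 with an adjusted p of 0.103.

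The Greatwall pathway restrains the phosphatase PP2A-B55 during mitosis. Of its 11 listed genes with the exit phosphatases, 6 fell, 1 rose and 4 missed the threshold, against 51.6% of all tested genes passing in either direction. Their median was -0.24. Cdca2, a PP1-targeting subunit, and Mastl, the Greatwall kinase gene, changed by -2.40 ± 0.14 and -1.19 ± 0.16 (SE). Ppp2r2a, a B55 subunit, changed by -0.36 ± 0.07 (SE). Cdc14a rose by 0.30 ± 0.10 (SE), with a limma adjusted p of 0.0386 that was lost in 7 alternative fits.

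Foxm1 was at 1.75 and 1.96 FPKM in AThi, against 15.80, 17.89 and 20.86 FPKM in ATlo. Its mean was 9.80-fold lower in AThi, with a log2 fold change of -2.98 ± 0.12 (SE). Mybl2, the gene of B-MYB, the factor that joins MuvB to activate mitotic genes, was at 0.34 and 0.47 FPKM in AThi, against 4.83, 6.65 and 7.14 FPKM in ATlo. The ratio of Foxm1 to Mybl2 was 5.15 and 4.17 in AThi, against 3.27, 2.69 and 2.92 in ATlo. With 0.5 FPKM added to both genes the difference turned from 0.65 to -0.10 on the log2 scale. Like Ccnb1, Mybl2 passed the filter through ATlo alone, as did Hmmr, Ttk, Plk4, Cdca2 and Cks2 of the lists above. The MuvB subunits Lin37 and Lin52 overlapped between groups, at log2 fold changes of 0.01 and 0.03, and Lin54, which binds the CHR, changed by -0.92 ± 0.14 (SE). Tfdp1, the dimer partner of E2F factors, changed by -0.95 ± 0.07 (SE). The repressive pocket protein genes moved in opposite directions. Rbl1 (p107) changed by -1.55 ± 0.13 (SE). Rbl2 (p130), a subunit of the repressor DREAM in quiescent cells, was at 16.79 and 16.15 FPKM in AThi, against 11.16, 10.47 and 11.13 FPKM in ATlo, with a log2 fold change of 0.57 ± 0.06 (SE). In the list of B-MYB, MuvB and DREAM, 5 of 12 genes fell, 1 rose and 6 missed the threshold, near the 51.6% of all tested genes that passed in either direction, and the median was -0.28. Of the NF-Y subunits, Nfyb changed by -0.45 ± 0.08 (SE), Nfyc by -0.30 ± 0.09 (SE), and Nfya did not pass. The call of Nfyc was lost in 4 of the 5 fits with a library left out, all but that without ATlo replicate 3 (adjusted p 0.0517 to 0.126).

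**Figure D4:**
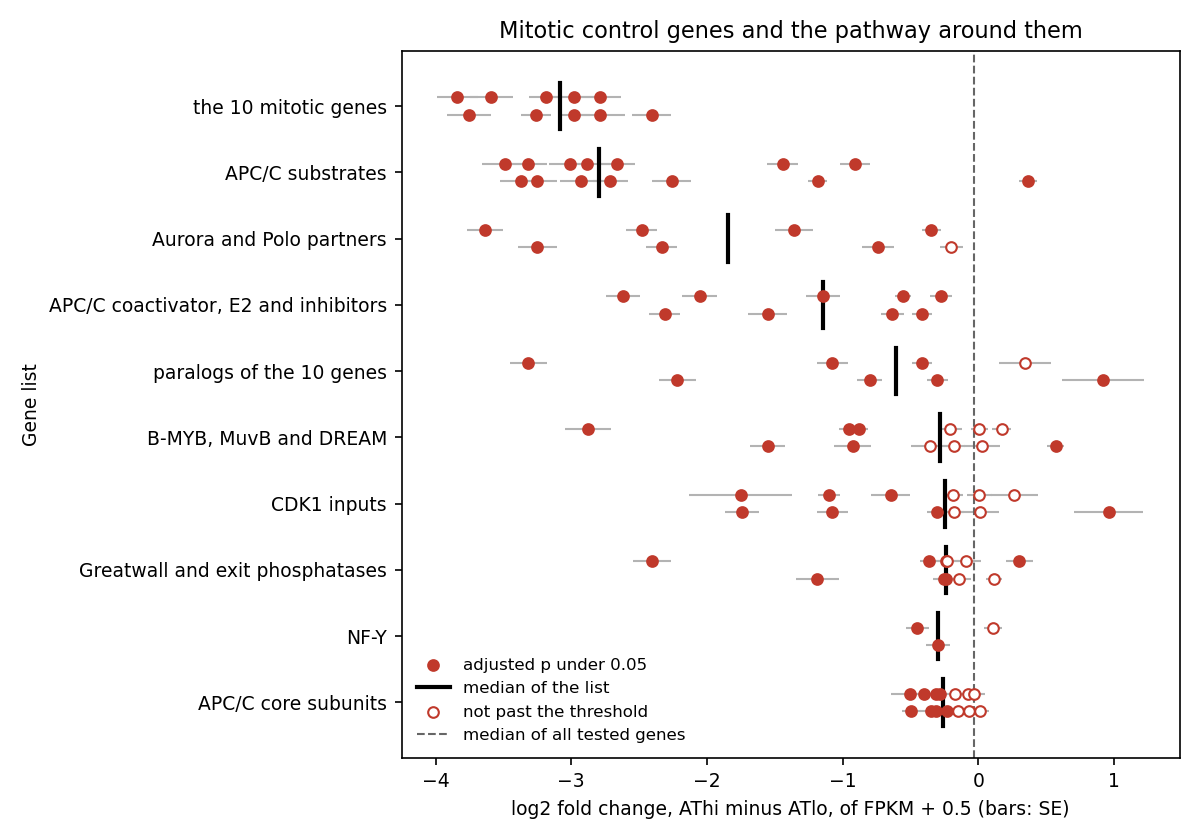
log2 fold changes, AThi minus ATlo, of the 10 mitotic genes and of 9 pathway lists, 1 point per tested gene with its SE, filled where the adjusted p was under 0.05. The 10 genes lie between -3.84 and -2.41, and the 14 APC/C core subunits lie between -0.50 and 0.02.

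Within groups, the libraries stood in much the same order for the 10 genes. In ATlo, replicate 1 was the lowest for all 10, as for 38.8% of all tested genes, and replicate 3 the highest for 9, as for 35.8% of all tested genes, the exception among the 10 being Ccnb2. In AThi, replicate 2 was the higher for 9 of 10 and for 46.9% of all tested genes. The spread within ATlo was widest for Ccnb1, with a highest value 1.65 times the lowest. A profile over all 5 libraries is dominated by the gap between AThi and ATlo, so likeness on it is mainly likeness in that gap. Among 7663 other genes averaging 5 FPKM or more, the 6 whose centred log2 profile over the 5 libraries lay nearest to the mean profile of the 10 were Kif2c, Tpx2, Pimreg, Hmmr, Aurkb and Ankle1. All 6 reached that mean through ATlo, with AThi means of 0.585 to 2.57 FPKM. Their root-mean-square distances were 0.052 to 0.087 on the log2 scale, against 0.046 (Plk1) to 0.404 (Cdk1) for the 10 themselves. Kif2c, a microtubule-depolymerising kinesin, was at 0.56 and 0.61 FPKM in AThi, against 7.81, 9.29 and 10.55 FPKM in ATlo.

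**Figure D5:**
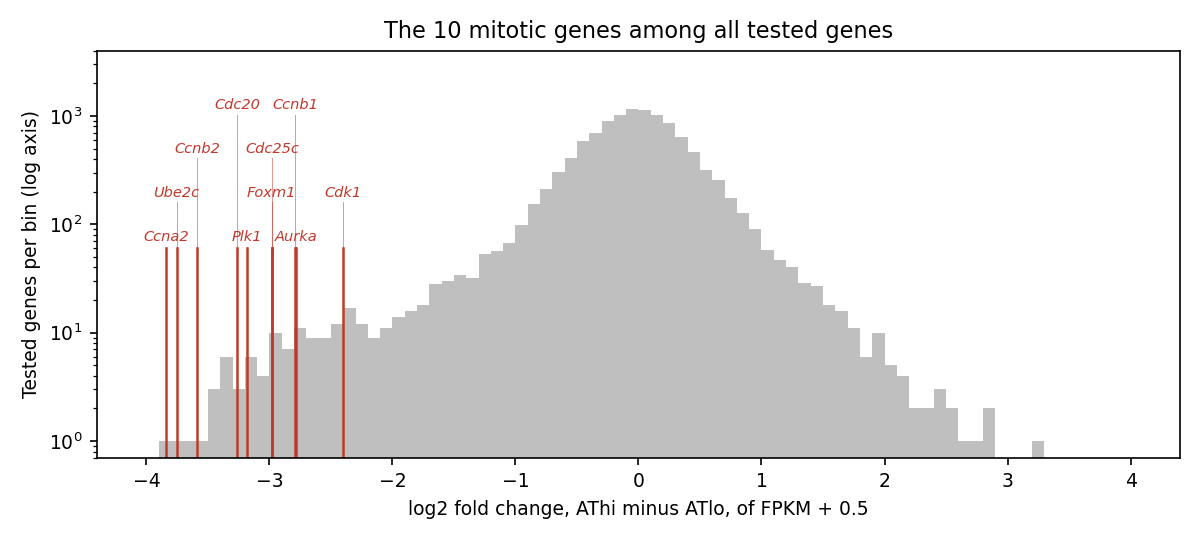
Distribution of log2 fold changes, AThi minus ATlo, over the 11397 tested genes in grey (log count axis), with the 10 mitotic genes as red lines. Of the 10, 9 are among the 50 largest falls, and Cdk1 is at rank 83.

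Other measures moved with the same groups. Of 16 immediate-early and handling genes, such as Fos and Btg2, 15 rose and 0 fell, where 22.2% of all tested genes rose. Without AThi replicate 2, 12 of the 15 calls were kept, those lost being Jun, Jund and Ier3. Their median log2 fold change was 1.73. Their summed level was 4276 to 6705 FPKM in AThi and 1521 to 2434 FPKM in ATlo. The mitochondrially encoded share of all FPKM was 7.51 to 10.0% in AThi and 5.53 to 5.98% in ATlo. The part of these in the falls of the mitotic genes was not tested. Epithelial markers were present in both groups, with Krt8, Krt18 and Krt19 between 608.8 and 1842 FPKM, and the 7 listed summed to 3582 to 4246 FPKM in AThi and 3830 to 4510 FPKM in ATlo. Of the 7, Krt7 fell (log2 fold change -0.67 ± 0.10, SE), Sox9 rose (1.01 ± 0.12, SE) and 5 missed the threshold. Epcam was low, at 1.51 to 3.57 FPKM. Of 22 markers of leukocytes, fibroblasts, endothelium, acinar and endocrine cells, 20 were under a mean of 1 FPKM. The remaining 2 were Cela1 and Cd68, and the summed leukocyte list was 8.79 to 14.8 FPKM in AThi and 4.35 to 4.63 FPKM in ATlo, almost all of it Cd68, with Ptprc at 0.05 FPKM or less.

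Read numbers of these genes were estimated from depth and length. The depth implied by the steps of low values was 27.6 and 44.95 M reads (M, 1e6) for AThi and 42.2, 36.1 and 39.2 M for ATlo. With merged exon lengths of GENCODE M21, Ccnb1 in AThi, the lowest value of the 10, corresponds to about 37 and 66 reads. That is above a floor of 3 reads. The length behind the FPKM is not known, and a shorter one would give fewer reads. Ccna2, Cdc20, Ube2c, Plk1 and Cdc25c overlap exons of a gene on the opposite strand, 510 bases of Exosc9 in the case of Ccna2. Exosc9 was at 6.98 and 6.49 FPKM in AThi, against 9.96, 10.28 and 9.93 FPKM in ATlo. Gm44985, which shares 156 bases with Plk1, was at 15.74 and 15.89 FPKM in AThi, against 12.21, 13.79 and 11.68 FPKM in ATlo. The strand setting of the counting is not given in the sources used here, so reads of such stretches cannot be told apart. On its own strand, Foxm1 shares 144 exonic bases with Tex52 and 97 with Gm44596. The part of these overlaps in the AThi levels was not tested. On GRCm38 (GENCODE M21), Ccnb1 lies on chromosome 13 (100778650 to 100786570), Ccnb2 on chromosome 9 (70407692 to 70421547), Cdk1 on chromosome 10 (69335146 to 69352938) and Aurka on chromosome 2 (172356190 to 172370535), all on the minus strand. Ube2c lies on chromosome 2 (164769898 to 164778822), Plk1 on chromosome 7 (122159439 to 122169873) and Foxm1 on chromosome 6 (128362967 to 128376146), all on the plus strand.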

How the data were processed

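The authors deposited 1 table of FPKM with a column per library, rounded to 2 decimals. Of tools, bcl2fastq, featureCounts, STAR and DESeq2 appear in the submitters' processing notes, with mm10 and GRCm38 as builds. For versions, annotation release and FPKM formula, no source used here gives a statement. Values are relative within a library, so a change in RNA per cell leaves no trace.

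Columns were matched to samples by the code in the sample titles. Rows averaging 1 FPKM or more were fitted with limma 3.58.1 in R 4.3.3 (eBayes with trend) on log2(FPKM + 0.5) over 5 libraries with group as the single term, and tested on simulated data. The fit had 3 residual degrees of freedom. Fold changes on this scale understate those of low genes. For ratios and sums, all regroupings of the libraries were enumerated (exact permutation test, two-sided, the smaller tail doubled). Depth was read from whole multiples in genes of 1 exon and at most 200 nucleotides (tolerance 0.1 of a step, at least 99.7% whole). It covers counting error only. Copies were sought with BLAST among GENCODE M21 transcripts (at least 95% identity over 100 nucleotides). The members, lists and ratios were chosen with earlier results of these data known. Named were the 10 genes, genes of the fixed lists (those with the largest calls first) and the 6 nearest profiles. In 26 rows a date-like entry stood in place of the symbol, and these stayed unnamed. Alternatives were other pseudocounts, filters, scalings and moderation, a replicate block and leaving out each library.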

Additional observations from a re-analysis of the deposited data

How the results depend on the processing

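All 10 mitotic genes kept their call as lower in AThi under 13 of 14 alternatives, their adjusted p at most 0.00224. In the fit with a minimum mean of 5 FPKM, Ccnb1 was not tested and the other 9 kept theirs. Over all genes 5884 passed, against 4414 to 5909 with other settings and 4307 to 5723 with 1 library left out. Of 99 genes of the fixed lists and nearest profiles, 77 stayed on their side of the threshold under every setting, and none changed sign while called. The calls kept with each library left out were 3 of 7 for CDK1 inputs, 3 of 7 for Greatwall and exit phosphatases, 6 of 6 for B-MYB, MuvB and DREAM and 1 of 2 for NF-Y. The log2 ratio of Ccnb1 to Ccnb2, AThi minus ATlo, was -0.17 and turned to 0.80 with 0.5 FPKM added, to 0.013 in the replicate block and to between -0.46 and 0.11 with 1 library left out, without a test past the threshold. That of Foxm1 to Mybl2 was 0.65 and turned to -0.10 with 0.5 FPKM added, and that of Ccnb1 to Cdk1 shrank to -0.38, against -1.409 without it. All 3 involve genes under 0.5 FPKM in AThi.

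The titles number replicates 1 and 2 in both groups. Deviations from the group means correlated across genes at 0.20 for number 1 and 0.297 for number 2. The deviations of the 2 AThi libraries mirror each other, so the unlike numbers gave -0.20 and -0.297 by construction. ATlo replicate 3 gave 0.06 with AThi replicate 1 and -0.06 with AThi replicate 2. The values are thus not independent and cannot decide whether equal numbers are pairs. The bracketed codes in the titles also begin alike for the same number in both groups, and differ for ATlo replicate 3, but no label says whether such a code marks a day, a batch or a culture. With the replicate number as a block, 5909 genes and all 10 mitotic genes passed. Among the 99 genes, Cdc27, Arpp19 and Cdc14a lost their call under the block and Gadd45a gained one. The sum of the 10 genes differed by -237 FPKM under the block and by -256.7 FPKM without it. Only ATlo has a replicate 3, so the block takes that library out of the estimate. Leaving out ATlo replicate 3 gave the same -237 FPKM, so the shift reflects that library and not pairing. For effect sizes these settings are therefore not separate alternatives.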
